A study of Mus musculus with 28 samples.

Results

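The genes described here are 38 mouse genes of the interferon response and of RNA sensing. They were chosen by name and known function, though with earlier results of these data known. Each was followed on its brightest probe set, the one with the highest mean over all 28 arrays, and older symbols were accepted, so the RNA sensor Rigi appears under its array symbol Ddx58. Of the 38 genes, 36 had a probe set that names them alone, among 18194 such genes on the array. Isg15 was only on a probe set that names several genes, and Ifi44 was on none used here, so neither has a value below. Of the 36 genes, 29 passed the filter on low values and were among the 9871 genes tested.

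Cells sense foreign or misplaced RNA with helicases of the cytosol. Ifih1 encodes MDA5 and Ddx58 encodes RIG-I, which signal for the making of type I interferon, while the product of Dhx58, LGP2, modulates both. Interferons bind receptors on the same or neighbouring cells, the type I receptor built from the products of Ifnar1 and Ifnar2 and the type II receptor from those of Ifngr1 and Ifngr2. The signal reaches the nucleus through STAT proteins and interferon regulatory factors. STAT2 and IRF9 are parts of a complex that binds the interferon-stimulated response element (ISRE), a short promoter motif, and switches on antiviral effectors together with brakes such as USP18. Activated T cells make interferon gamma themselves and carry both kinds of receptor.

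Romidepsin and vorinostat inhibit histone deacetylases, and the study asked what they do to gene expression in T cells. CD4 T cells and CD8 T cells came from mouse spleen by negative selection. All groups, the controls included, were stimulated for 2 days with plate-bound anti-CD3 at 3 µg/ml and soluble anti-CD28 at 5 µg/ml. For each cell type there was a stimulated control group and 6 drug groups that then had 1 day of exposure, to romidepsin (2, 10 or 30 nM) or to vorinostat (0.5, 2 or 10 µM), and each of the 14 groups held 2 arrays. The labels used here give no strain, age or genotype and name no vehicle for the control. They do not say how many animals the arrays came from, so p-values measure only the spread between these arrays. RNA was hybridised to the Affymetrix Mouse430_2 array. Values are log2 expression after GCRMA, a background correction and normalization that uses probe sequence. On this scale a difference of 1 is 1 doubling, and a value cannot be set against that of another gene, since probe sets differ in brightness. The doses of the drugs have no common scale, so the drugs are given side by side and not compared.

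The arrays of replicate number 1 differed as a set from those of replicate number 2. Xist lay at 2.27 in every replicate 1 array and at 11.69 to 12.72 in every replicate 2 array, the Y-linked Eif2s3y showed the reverse, and the lowest value was 2.2684 in the first set and 2.2545 in the second. Each set held 1 array of every group. By these genes replicate 1 was male and replicate 2 female, so the arrays of a group came from different animals. Sex thus goes with replicate number, and they cannot be told apart. A pair of limma fits is therefore given wherever they part: a fit of the 14 group means, from which every ± (standard error of a difference, n = 2 and 2) and every adjusted p comes unless the block is named, and the same fit with the replicate number in each cell type as a block. A gene is called where the Benjamini-Hochberg adjusted p over all 9871 genes is under 0.05. Arrays were also left out 1 at a time, in the fit without the block only. That unpairs the replicate numbers, so their offset enters the change. A call lost that way does not by itself show an unstable drug effect. The detection level was set at 4.27. T-cell markers were high in all arrays, and Cd8a lay at 9.34 to 11.99 in CD8 arrays and at 4.0 to 6.07 in CD4 arrays. Cd4 was over the detection level in 11 of 14 CD4 arrays and in no CD8 array. The 3 CD4 arrays with Cd4 under it were both arrays with romidepsin at 30 nM and replicate 1 with vorinostat at 10 µM. Cd8b1 was over the detection level in all 14 CD4 arrays (5.32 to 8.28), below its CD8 range of 9.93 to 12.6. Zbtb7b, the other CD4 marker, was over that level in all 14 CD4 arrays and in 10 of 14 CD8 arrays. The label of those 3 arrays thus rests on Cd8a and Cd8b1 being lower than in CD8 arrays.

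RefSeq promoters (mouse build GRCm38.p6) were at hand for 30 of the 38 genes. Within the 250 bases before the start, the ISRE letters, GAAA, any 2 bases and GAAA again (TTTC, any 2 bases and TTTC on the other strand), occurred in 7 of these 30 promoters (23.3%) and in 936 of 27025 genes with a promoter (3.46%). The 7 genes with the ISRE letters were Stat2, Isg15, Trim30a, Ifit1, Ifit3, Rsad2 and Bst2. The 4 of them that were among the genes tested are printed as the promoter's coding strand, with the ISRE letters in capitals. Isg15 had no value and Ifit3 and Rsad2 were not tested, so none of these could be called. They lie at chr10:128270248-128270497 on the plus strand for Stat2, chr7:104465194-104465443 on the minus strand for Trim30a, chr19:34640639-34640888 on the plus strand for Ifit1 and chr8:71537473-71537722 on the minus strand for Bst2.
Stat2: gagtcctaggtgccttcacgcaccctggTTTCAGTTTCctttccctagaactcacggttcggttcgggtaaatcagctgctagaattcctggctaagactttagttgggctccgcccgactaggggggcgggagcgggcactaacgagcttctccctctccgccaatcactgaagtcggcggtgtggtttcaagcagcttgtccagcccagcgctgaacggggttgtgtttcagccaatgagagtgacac
Trim30a: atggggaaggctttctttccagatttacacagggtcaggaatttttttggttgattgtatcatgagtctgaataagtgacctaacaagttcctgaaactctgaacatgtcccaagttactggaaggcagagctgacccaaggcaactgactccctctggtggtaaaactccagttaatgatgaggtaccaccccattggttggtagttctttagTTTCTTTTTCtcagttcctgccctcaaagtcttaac
Ifit1: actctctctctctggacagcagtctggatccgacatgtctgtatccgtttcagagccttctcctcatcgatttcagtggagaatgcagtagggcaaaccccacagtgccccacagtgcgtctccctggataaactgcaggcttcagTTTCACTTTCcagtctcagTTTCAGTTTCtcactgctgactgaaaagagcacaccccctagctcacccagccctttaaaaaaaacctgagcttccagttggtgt
Bst2: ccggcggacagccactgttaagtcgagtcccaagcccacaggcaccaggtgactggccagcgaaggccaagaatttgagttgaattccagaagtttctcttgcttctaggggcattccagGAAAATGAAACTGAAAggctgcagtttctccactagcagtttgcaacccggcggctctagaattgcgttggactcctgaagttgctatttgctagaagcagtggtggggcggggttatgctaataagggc
The match began 222 bases before the start in Stat2 and 36 bases before it in Trim30a. Another promoter window of Trim30a, at chr7:104446126-104446375 on the minus strand, held no ISRE letters. Ifit1 held 2 separate matches, beginning 104 and 85 bases before the start, and the 2 matches of Bst2, at 130 and 124 bases, overlap. A match describes the letters of this window and does not show that a factor binds there.

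In the stimulated controls, before any drug, the cell types differed in some of these genes. Xaf1, a proapoptotic gene induced by interferon, lay at 9.17 and 8.42 in the CD8 control arrays (replicates 1 and 2) and at 5.16 and 5.30 in the CD4 control arrays, a difference of 3.56 ± 0.46, or 11.8-fold (adjusted p = 0.000104). Ifngr2, the signalling chain of the interferon gamma receptor, ran the other way, at 4.03 and 5.28 in CD8 and 7.05 and 8.61 in CD4 arrays (-3.17 ± 0.71, 9.01-fold lower in CD8, adjusted p = 0.011), with 1 of the 2 CD8 arrays over the detection level. Usp18, the protease that removes ISG15 and blocks the type I receptor, lay at 5.12 and 5.39 in CD8 and at 6.45 and 7.06 in CD4 arrays (-1.5 ± 0.40, 2.82-fold lower, adjusted p = 0.035). In each of these genes the arrays of the cell types lay apart. They are 1 gene called higher and 2 called lower in CD8 among the 29 tested, where 6.22% of all genes were called (2.42% higher and 3.80% lower). With the block, 14 of the 29 were higher and 3 lower in CD8, against 36.7% of all genes (20.3% higher and 16.4% lower). Besides Xaf1, those higher by 1 or more were Zbp1, a sensor of Z-form nucleic acids (1.95), Ifnar1 (1.56), Parp14 (1.38), Trim30a (1.31), Ifit2 (1.12) and Ifngr1 (1.03). Samhd1, which degrades the nucleotides that viruses need, joined Usp18 and Ifngr2 on the lower side (-1.67, adjusted p = 3.58e-07 with the block). Without the CD4 control replicate 2 or the CD8 control replicate 1, Ifngr2 was no longer called in the fit without the block (-2.40 and -2.55, adjusted p = 0.148 and 0.154), and Usp18 was not called without any 1 of the 4 control arrays (-1.80 to -1.20, adjusted p from 0.0668 to 0.259).

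**Figure D1:**
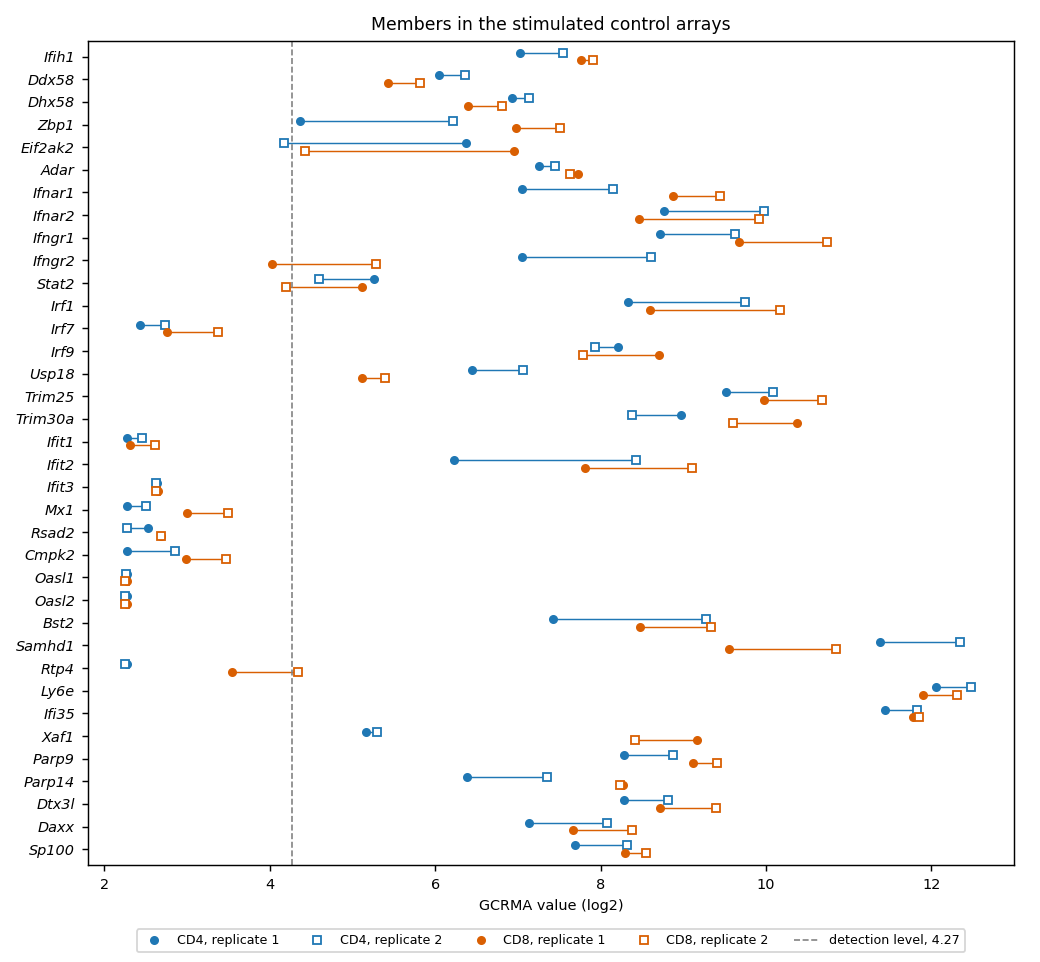
The 36 genes with a probe set of their own (rows) in the 4 control arrays, as GCRMA log2 values; blue marks CD4 and orange CD8 arrays, filled circles replicate 1 and open squares replicate 2, with a line joining the arrays of a group and a dashed line at the detection level of 4.27. Xaf1 is higher and Ifngr2 and Usp18 lower in both CD8 arrays than in both CD4 arrays, while Irf7, Ifit1, Ifit3, Mx1, Rsad2, Cmpk2, Oasl1 and Oasl2 lie under the detection level; rows cannot be set against each other.

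Under the drugs the genes did not move as 1 programme. At the highest doses the RNA sensor Ifih1, the factors Stat2 and Irf1, the brake Usp18 and the effectors Ifit1, Cmpk2, Samhd1 and Trim30a rose, while Ddx58, Dhx58, Irf9, the receptor chains Ifnar2 and Ifngr1, the effectors Ly6e and Xaf1 and the PARP9 and DTX3L genes fell, in 1 or both cell types and with or without the block as given below. In CD4 cells with romidepsin at 30 nM, 3 of the 29 genes rose and 2 fell (21.2% of all genes called, 13.3% up and 7.91% down), and with the block 10 rose and 12 fell (63.7%, 35.3% up and 28.3% down). With vorinostat at 10 µM in CD4 cells, 2 rose and 2 fell (18%, 10.9% up and 7.10% down), and with the block 9 and 11 (61.2%, 31.9% up and 29.3% down). CD8 cells had 3 risen and 1 fallen with romidepsin at 30 nM (10.8%, 7.89% up and 2.93% down), and 11 and 11 with the block (52.4%, 27.8% up and 24.6% down). Vorinostat at 10 µM gave them 4 risen and 4 fallen (20.5%, 12% up and 8.5% down), and 10 and 14 with the block (64.0%, 31.6% up and 32.4% down). The shares of the 29 genes called, 17.2%, 13.8%, 13.8% and 27.6% in this order without the block and 75.9%, 69.0%, 75.9% and 82.8% with it, lay below those of all genes in CD4 cells and above them in CD8 cells without the block, and above them in all 4 comparisons with it. The gap between the shares was not tested, and no contrast between the cell types is read from it. Ifit1 and Cmpk2 were over the detection level in 7 of 28 arrays each, and passed the filter through drug groups alone. Without the block both count among the CD8 calls with vorinostat at 10 µM, and Ifit1 among those with romidepsin at 30 nM. The CD8 shares thus lean on genes that had to differ there.

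The middle doses gave fewer calls. Romidepsin at 10 nM called 1 gene up and 1 down in CD4 cells (8.64% of all genes) and none in CD8 cells (1.12%), where limma's unadjusted p was under 0.05 for 3 up and 0 down. With the block there were 9 up and 10 down in CD4 cells (48.2%) and 5 up and 0 down in CD8 cells (17.2%). Vorinostat at 2 µM called 1 gene up and 0 down in CD4 cells (1.42%) and 2 up and 1 down in CD8 cells (3.30%), and with the block 5 up and 4 down (28.3%) and 8 up and 4 down (36.8%). At the lowest doses limma called 0 of the 29 genes in either fit. With romidepsin at 2 nM the shares of all genes called were 0.0304% in CD4 cells and 0.00% in CD8 cells (0.922% and 0.00% with the block), and 1 gene, Ifih1 in CD4 cells, had an unadjusted p under 0.05. With vorinostat at 0.5 µM they were 0.0101% and 0.00% (0.253% and 1.13% with the block), and 0 genes had an unadjusted p under 0.05. Scaling every array to the same median moved the median change of all genes by over 0.1 in several comparisons, by most in CD8 cells with romidepsin at 30 nM (0.02 to -0.32), and moved calls towards the lower side. In CD4 cells it turned the split of the 29 genes from 1 up and 1 down to 2 and 6 at 10 nM, from 3 and 2 to 2 and 10 at 30 nM, and from 2 and 2 to 2 and 7 at 10 µM, while the share of all calls that went up moved from 73.2% to 29.8%, 62.7% to 36.3% and 60.5% to 40.7%. For CD8 cells the split turned from 3 and 1 to 6 and 9 at 30 nM, from 2 and 1 to 3 and 1 at 2 µM and from 4 and 4 to 6 and 12 at 10 µM, with all calls going from 72.9% to 21.4%, 77.3% to 20.3% and 58.6% to 27.0% up. In CD4 cells at 2 µM it left 0 of the 29 genes called (all calls 76.4% to 32.2% up). For CD8 against CD4 controls the split went from 1 higher and 2 lower to 5 and 3 (all calls 38.9% to 57.3% higher). Quantile normalization moved the upward share of all calls by over 10 points at 10 nM and 2 µM in CD4 cells (to 58.8% and 61.5%) and in CD8 cells (from 99.1% to 75.9%, and to 59.9%) and at 30 nM in CD8 cells, where the 29 genes split into 6 up and 5 down (all calls 55.5% up). No gene called with the block in a drug comparison, of 133 such gene and comparison pairs, turned its sign under that scaling or under quantile normalization.

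**Figure D2:**
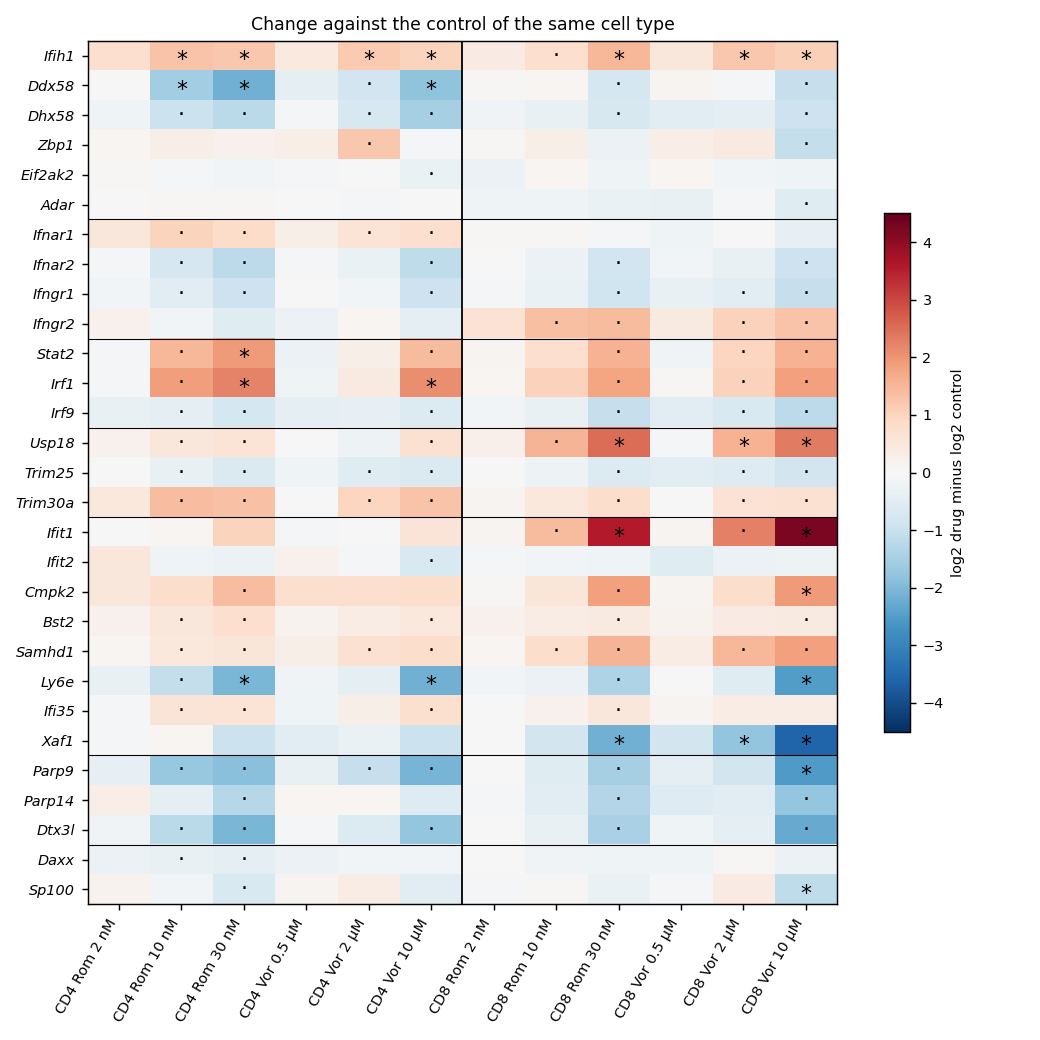
Change in log2 units (drug minus control of the same cell type, colour bar) of the 29 tested genes (rows, grouped by role) in the 6 drug groups of CD4 cells (left) and of CD8 cells (right); a star marks an adjusted p under 0.05 without the block and a dot one under 0.05 with the block only. Red and blue rows alternate within most roles: Ifih1, Stat2, Irf1, Trim30a and Samhd1 are red where Ddx58, Dhx58, Irf9, Trim25, Ly6e and Parp9 are blue, and Ifit1, Usp18 and Xaf1 are darker on the CD8 side.

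The RNA sensors parted. Ifih1 rose in both cell types with both drugs, while Ddx58 fell in CD4 cells. Ifih1 lay at 7.02 and 7.55 in the CD4 control arrays, 7.82 and 8.29 at 2 nM, 8.60 and 8.55 at 10 nM and 8.18 and 8.81 at 30 nM romidepsin, and at 7.50 and 7.96, 8.66 and 8.30, and 8.33 and 8.27 at 0.5, 2 and 10 µM vorinostat. In CD8 cells it lay at 7.76 and 7.91 in the control, 8.12 and 8.27, 8.64 and 8.54, and 9.67 and 9.01 with romidepsin, and 8.20 and 8.46, 9.12 and 9.01, and 9.13 and 8.71 with vorinostat. From the middle dose on, every drug array of Ifih1 lay above both controls of its cell type. The rises were 1.29 ± 0.28 (2.44-fold, adjusted p = 0.00754) at 10 nM and 1.21 (adjusted p = 0.00523) at 30 nM romidepsin in CD4 cells, and 1.5 (2.84-fold, adjusted p = 0.00207) at 30 nM in CD8 cells. Vorinostat at 2 and 10 µM gave 1.19 and 1.01 in CD4 cells (adjusted p = 0.0431 and 0.0176) and 1.23 and 1.08 in CD8 cells (adjusted p = 0.0217 and 0.0109). The rise at 10 nM in CD8 cells, 0.75, was called with the block only (adjusted p = 0.0397). Each Ifih1 call was lost when some 1 array was left out of the fit without the block, which unpairs the replicate numbers. All 4 CD4 calls were lost without CD4 control replicate 1 (0.75 to 1.03, adjusted p from 0.0838 to 0.521), and the CD8 call with vorinostat at 2 µM was lost without any of its 4 arrays (1.15 to 1.31, adjusted p from 0.0821 to 0.21). Others were lost without romidepsin 10 nM replicate 1 (1.26) or 30 nM replicate 2 (0.90) and either array of vorinostat at 2 µM (1.02 and 1.37) or 10 µM (0.98 and 1.05) in CD4 cells, and without romidepsin 30 nM replicate 1 (1.18), control replicate 1 (1.00) or vorinostat 10 µM replicate 1 (0.87) in CD8 cells.

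Ddx58 lay at 6.05 and 6.36 in the CD4 control arrays. With romidepsin it lay at 5.94 and 6.47, 4.08 and 5.20, and 3.81 and 4.29 at 2, 10 and 30 nM, and with vorinostat at 5.42 and 6.11, 5.29 and 5.37, and 4.62 and 4.15 at 0.5, 2 and 10 µM. In CD8 cells it lay at 5.43 and 5.82 in the control, at 5.57 and 5.83, 5.42 and 6.0, and 4.34 and 5.35 with romidepsin, and at 5.44 and 6.08, 5.39 and 5.70, and 4.6 and 4.55 with vorinostat. In both cell types the highest-dose arrays lay below both controls, and in CD4 cells those at 10 nM and 2 µM did too. At 2 µM in CD4 cells the change was -0.87, called with the block only. The falls called without the block in CD4 cells were -1.57 ± 0.40 at 10 nM (adjusted p = 0.0218), -2.16 at 30 nM (adjusted p = 0.00108) and -1.82 at 10 µM (adjusted p = 0.00452). In each of these groups only 1 of the 2 arrays was over the detection level, so no fold is given. CD8 cells reached -0.78 and -1.05 at the highest doses, called with the block only (adjusted p = 0.0287 and 0.00407, against 0.274 and 0.0772 without it). Of the CD4 calls, those at 30 nM and 10 µM held without any 1 array, and that at 10 nM was lost without romidepsin replicate 1 (-1.0, adjusted p = 0.344) or either control (-1.72 and -1.41, adjusted p = 0.0896 and 0.122). Dhx58 fell with the block at 10 nM (-0.96), 30 nM (-1.23), 2 µM (-0.71) and 10 µM (-1.49, adjusted p = 3.69e-05) in CD4 cells and at 30 nM (-0.71) and 10 µM (-0.94) in CD8 cells. Without the block none of its falls was called (adjusted p of 0.0836 at 10 µM in CD4 cells). Another Ddx58 probe set changed by -2.13, -2.29 and -2.06 in the 3 CD4 comparisons called without the block, and by -0.72 at 2 µM. In CD8 cells it changed by -0.66 at 10 µM but showed no change at 30 nM (-0.0), so it does not bear out the fall there.

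The other nucleic acid sensors moved little or in few groups. Zbp1 ran from 4.37 to 6.99 over the CD4 arrays and from 5.56 to 8.19 over the CD8 arrays, and with the block it rose with vorinostat at 2 µM in CD4 cells (1.21) and fell at 10 µM in CD8 cells (-1.08). Eif2ak2, the kinase PKR that halts translation on double-stranded RNA, fell with the block only with vorinostat at 10 µM in CD4 cells (-0.31). Its brightest probe set split by replicate, from 5.91 to 7.19 in replicate 1 and from 4.01 to 4.53 in replicate 2, and 2 further probe sets of the gene changed by -0.93 and -1.48 there. Adar, which edits adenosines in double-stranded RNA, fell with the block with vorinostat at 10 µM in CD8 cells (-0.55), and its 2 further probe sets changed by -1.39 and -0.29.

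Changes of the receptor chains were called only in the fit with the block, where the 2 chains of each receptor went opposite ways in 1 of the cell types. Ifnar2 fell in CD4 cells (-0.75, -1.18 and -1.13 at romidepsin 10 and 30 nM and vorinostat 10 µM) and in CD8 cells (-0.87 and -0.94 at the highest doses). Its 2 further probe sets fell by more, in CD8 cells by -1.83 and -2.36 at 30 nM and by -2.64 and -2.93 at 10 µM. In CD4 cells they changed by -1.49 and -1.78 at 30 nM and by -1.67 and -1.62 at 10 µM. Ifnar1 rose in CD4 cells by 1.00 and 0.82 at 10 and 30 nM and by 0.63 and 0.75 at 2 and 10 µM, and was not called in CD8 cells. Its arrays ran from 7.05 to 8.76 in CD4 and from 8.29 to 9.69 in CD8 cells, so the CD4 rise moved towards the CD8 range. For the type II receptor, Ifngr1 fell in both cell types at the highest doses (-0.92 and -0.92 in CD4 cells, -0.91 and -1.05 in CD8 cells). Ifngr2 rose in CD8 cells by 1.36 at 10 nM, 1.42 at 30 nM, 1.05 at 2 µM and 1.30 at 10 µM (adjusted p from 0.000677 to 0.0089 with the block and from 0.235 to 0.854 without it), from 4.03 and 5.28 in the control arrays to 5.42 and 6.75 at 30 nM and 5.66 and 6.25 at 10 µM. All CD8 arrays of Ifngr2 (4.03 to 6.75) still lay below all CD4 arrays (6.96 to 8.61).

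The transcription factors split as the sensors did, with Irf1 and Stat2 up and Irf9 down. Irf1, a factor that T cells induce through interferon gamma and the T-cell receptor, lay at 8.33 and 9.74 in the CD4 control arrays, 8.24 and 9.72, 10.84 and 11.00, and 11.00 and 11.53 at 2, 10 and 30 nM romidepsin, and 8.30 and 9.36, 9.17 and 9.67, and 11.19 and 11.07 at 0.5, 2 and 10 µM vorinostat. In CD8 cells it lay at 8.60 and 10.17, then 8.66 and 10.25, 9.99 and 10.87, and 10.89 and 11.42 with romidepsin, and 8.68 and 10.17, 10.14 and 10.68, and 11.11 and 11.34 with vorinostat. Control arrays differed between replicates by more than 1 log2 unit, while the highest-dose arrays lay close together and above both controls. Irf1 rose in CD4 cells by 2.23 ± 0.69 at 30 nM (4.69-fold, adjusted p = 0.0294) and by 2.09 at 10 µM (4.26-fold, adjusted p = 0.0449). With the block it also rose at 10 nM in CD4 cells (1.89) and at 30 nM (1.77), 2 µM (1.02) and 10 µM (1.84) in CD8 cells. The call at 30 nM was lost without either drug array (2.49 and 1.96) or control replicate 1 (1.52, adjusted p = 0.271), and that at 10 µM without either drug array (2.03 and 2.15) or control replicate 1 (1.39, adjusted p = 0.346).

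Stat2, whose promoter is printed above, lay at 5.26 and 4.6 in the CD4 control arrays, 4.98 and 4.77, 6.65 and 6.22, and 6.89 and 6.81 with romidepsin, and 4.61 and 4.70, 5.16 and 5.22, and 6.14 and 6.60 with vorinostat. In CD8 cells it lay at 5.11 and 4.20 in the control, 5.03 and 4.57, 5.92 and 4.89, and 6.80 and 5.66 with romidepsin, and 4.89 and 4.14, 6.64 and 4.61, and 6.59 and 5.87 with vorinostat. At the highest doses all arrays lay above their controls, and at 2 µM in CD8 cells 1 of the 2 arrays did not. The rise at 30 nM in CD4 cells, 1.92 ± 0.56 (3.78-fold), was called in both fits (adjusted p = 0.022 and, with the block, 4.05e-05). It was lost without either drug array (1.88 and 1.96, adjusted p = 0.106 and 0.0765) or control replicate 2 (1.58, adjusted p = 0.144). With the block Stat2 also rose at 10 nM (1.51) and 10 µM (1.44) in CD4 cells and at 30 nM (1.57), 2 µM (0.97) and 10 µM (1.57) in CD8 cells. Irf9, the DNA-binding partner of STAT2, fell with the block in 6 of the 12 drug groups and in none without it, reaching -0.80 in CD4 cells (30 nM) and -1.17 in CD8 cells (10 µM, adjusted p = 4.15e-06). Irf7, which amplifies the type I response, stayed between 2.42 and 3.62 in all arrays, under the detection level.

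In the ISG15 system, Usp18 rose mainly in CD8 cells. Usp18 lay at 5.12 and 5.39 in the CD8 control arrays, 5.56 and 5.40, 6.52 and 7.06, and 7.84 and 7.71 with romidepsin at 2, 10 and 30 nM, and 4.83 and 5.61, 6.75 and 6.87, and 7.41 and 7.76 with vorinostat at 0.5, 2 and 10 µM. In CD4 cells it started higher and moved less, at 6.45 and 7.06 in the control, 6.67 and 7.19, 6.79 and 7.72, and 6.91 and 7.80 with romidepsin, and 6.35 and 7.17, 6.22 and 6.83, and 7.21 and 7.68 with vorinostat. The highest-dose arrays of the 2 cell types thus lay between 6.91 and 7.84. The CD8 rises were 2.52 ± 0.40 at 30 nM (5.73-fold, adjusted p = 0.000732), 1.55 at 2 µM (2.93-fold, adjusted p = 0.0458) and 2.33 at 10 µM (5.03-fold, adjusted p = 0.000729). With the block Usp18 rose also at 10 nM in CD8 cells (1.53) and in CD4 cells by 0.50, 0.60 and 0.69 at 10 nM, 30 nM and 10 µM. The calls at 30 nM and 10 µM in CD8 cells held without any 1 array (2.15 to 2.66), and that at 2 µM was lost without any of its 4 arrays (1.42 to 1.69, adjusted p from 0.124 to 0.335).

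The ligases of the TRIM family went opposite ways with the block and were not called without it. Trim30a, a restrainer of NF-kB signalling that interferon induces, rose in CD4 cells by 1.39, 1.31, 0.96 and 1.27 at 10 nM, 30 nM, 2 µM and 10 µM and in CD8 cells by 0.78, 0.64 and 0.70 at 30 nM, 2 µM and 10 µM. At 30 nM its CD4 arrays stood at 10.39 and 9.57, against 8.97 and 8.38 in the control. Trim25, the ligase that activates RIG-I, fell in 7 of the 12 drug groups (-0.66 at 30 nM and at 10 µM in CD4 cells, -0.84 at 10 µM in CD8 cells). Another Trim25 probe set changed by -0.1 at 10 nM and by 0.0 at 30 nM, 2 µM and 10 µM in CD4 cells. It thus does not bear out the CD4 fall, but it changed by -0.53, -0.4 and -0.53 in the CD8 comparisons called. The remaining Trim25 probe set changed by -0.34 to -0.64 in CD4 cells and by -0.56 to -0.78 in CD8 cells. Near-identical Trim30 family members could share Trim30a's probes, so its value may not be its own alone.

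Of the antiviral effectors, Ifit1 had the largest fitted rise. Ifit1, which binds viral RNA lacking host cap marks, was under the detection level in all controls and passed the filter through drug groups alone, so it had to differ there. Its CD8 arrays read 2.31 and 2.61 in the control, 2.33 and 2.86, 2.93 and 4.85, and 5.54 and 6.53 at 2, 10 and 30 nM romidepsin, and 2.29 and 2.86, 4.08 and 5.36, and 6.52 and 6.87 at 0.5, 2 and 10 µM vorinostat. Its CD4 arrays read 2.27 and 2.46 in the control, 2.27 and 2.46, 2.29 and 2.61, and 2.33 and 4.42 with romidepsin, and 2.27 and 2.25, 2.29 and 2.46, and 2.33 and 3.56 with vorinostat. All 4 CD8 arrays at the highest doses were above the detection level, and of the CD4 arrays only replicate 2 at 30 nM was. The rises in CD8 cells were 3.57 ± 0.65 at 30 nM (adjusted p = 0.00195) and 4.24 at 10 µM (adjusted p = 0.000293) on the fitted scale, and since the control has only a bound these are at least 3.39-fold and at least 5.38-fold, the drug mean against the detection level. Both held without any 1 array (3.08 to 4.41). With the block the comparisons at 2 µM, at least 1.37-fold higher, and at 10 nM in CD8 cells were called too, with 1 of the 2 drug arrays over the detection level at each dose and a mean under it at 10 nM, where no size is given. The 2 ISRE matches of its promoter are printed above.

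Cmpk2, a mitochondrial nucleotide kinase gene next to Rsad2, behaved likewise at lower values. It too was under the detection level in all controls and passed the filter through drug groups alone, so it had to differ there. Its CD8 arrays read 2.99 and 3.47 in the control, 2.85 and 3.73, 2.99 and 4.56, and 5.11 and 5.04 with romidepsin, and 2.99 and 3.74, 4.28 and 3.74, and 4.78 and 5.49 with vorinostat. Its CD4 arrays read 2.27 and 2.86 in the control, 2.32 and 3.82, 2.99 and 3.74, and 3.48 and 4.42 with romidepsin, and 2.85 and 3.72, 2.85 and 3.74, and 2.99 and 3.72 with vorinostat. Cmpk2 rose with vorinostat at 10 µM in CD8 cells by 1.90 ± 0.60 (adjusted p = 0.033), at least 1.82-fold. That call was lost without any 1 of its 4 arrays (1.55 to 2.26, adjusted p from 0.0658 to 0.185). With the block Cmpk2 rose also at 30 nM in CD8 cells, at least 1.75-fold. The comparison at 30 nM in CD4 cells was called with the block as well, but only replicate 2 of the drug (4.42) was over the detection level and the group's mean was under it, so no size is given. Of the antiviral effectors that were not tested, Oasl1, Oasl2, Ifit3 and Rsad2 were detected in no array. Oasl1 and Oasl2 lay at the floor of the scale in every array, Ifit3 reached 3.42, and Rsad2, which makes an antiviral nucleotide, reached 4.04 with vorinostat at 10 µM in CD8 cells (3.91 and 4.04, against 2.68 and 2.68 in the control). Mx1 and Rtp4 were over the detection level in 1 array each, at 4.37 with romidepsin at 10 nM and at 4.34 in the control, both CD8 replicate 2. These 6 genes, with Irf7, are the 7 that were not tested. Ifit2, a relative of Ifit1, was detected in every array, from 5.11 to 8.90 in CD4 and from 6.89 to 9.39 in CD8 cells, and did not follow Ifit1: its only call, with the block, was a fall with vorinostat at 10 µM in CD4 cells (-0.70).

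Other effectors were already high in the controls. Samhd1 rose with the block in all 8 drug groups at the middle and highest doses, by 0.49, 0.53, 0.69 and 0.79 at 10 nM, 30 nM, 2 µM and 10 µM in CD4 cells and by 0.80, 1.52, 1.51 and 1.83 in CD8 cells (adjusted p = 1.73e-07 at 10 µM). Its CD8 arrays went from 9.55 and 10.85 in the control to 11.10 and 12.34 at 30 nM and 11.42 and 12.65 at 10 µM. None of these rises was called without the block (adjusted p of 0.0954 at 10 µM in CD8 cells), and 2 of the 4 further probe sets of Samhd1 disagreed at 30 nM in CD4 cells, at -0.21 and -0.25. Bst2, which encodes tetherin, rose with the block by 0.51, 0.75 and 0.49 at 10 nM, 30 nM and 10 µM in CD4 cells and by 0.41 and 0.41 at the highest doses in CD8 cells. Ifi35 rose with the block in CD4 cells by 0.58, 0.63 and 0.73 at 10 nM, 30 nM and 10 µM and in CD8 cells by 0.50 at 30 nM.

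Ly6e and Xaf1 fell. Ly6e, a membrane protein with a role in virus entry, lay at 12.06 and 12.48 in the CD4 control arrays, 11.73 and 12.18, 10.60 and 11.81, and 9.61 and 10.85 with romidepsin, and 11.98 and 12.23, 11.72 and 12.03, and 9.63 and 10.61 with vorinostat. In CD8 cells it lay at 11.90 and 12.31, then 11.87 and 12.12, 11.80 and 11.90, and 10.07 and 11.34 with romidepsin, and 12.16 and 12.11, 11.32 and 11.82, and 8.98 and 10.16 with vorinostat. All highest-dose arrays lay below both controls of their cell type. Ly6e fell in CD4 cells at 30 nM (-2.04 ± 0.52, 4.11-fold lower, adjusted p = 0.0095) and at 10 µM (-2.15, 4.45-fold, adjusted p = 0.00757), and in CD8 cells at 10 µM (-2.53, 5.79-fold, adjusted p = 0.00239). With the block it fell also at 10 nM in CD4 (-1.06) and at 30 nM in CD8 cells (-1.40). The CD8 call held without any 1 array, and both CD4 calls were lost without control replicate 2 (-1.83 and -1.94, adjusted p = 0.0684 and 0.0585) or replicate 1 of the drug (-1.42 and -1.67, adjusted p = 0.147 and 0.11).

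Xaf1 fell in CD8 cells, where the controls held more of it. Its CD8 arrays read 9.17 and 8.42 in the control, 9.30 and 8.36, 7.95 and 8.0, and 6.47 and 6.81 at 2, 10 and 30 nM romidepsin, and 8.08 and 7.89, 7.18 and 6.89, and 5.06 and 5.33 at 0.5, 2 and 10 µM vorinostat. Its CD4 arrays read 5.16 and 5.30 in the control, 4.70 and 5.64, 4.69 and 5.93, and 4.06 and 4.44 with romidepsin, and 4.33 and 5.22, 5.30 and 4.58, and 4.69 and 3.83 with vorinostat. At 10 µM the CD8 arrays had reached the values of the CD4 control, and no change was called in CD4 cells in either fit. The CD8 falls were -2.16 ± 0.46 at 30 nM (4.46-fold lower, adjusted p = 0.00607), -1.76 at 2 µM (3.39-fold, adjusted p = 0.0484) and -3.60 at 10 µM (12.2-fold, adjusted p = 6.38e-05). The call at 10 µM held without any 1 array (-3.98 to -3.23). That at 30 nM was lost without its replicate 1 (-1.98) or control replicate 1 (-1.78, adjusted p = 0.1), and that at 2 µM without any of its 4 arrays (-2.13 to -1.39, adjusted p from 0.0795 to 0.432).

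**Figure D3:**
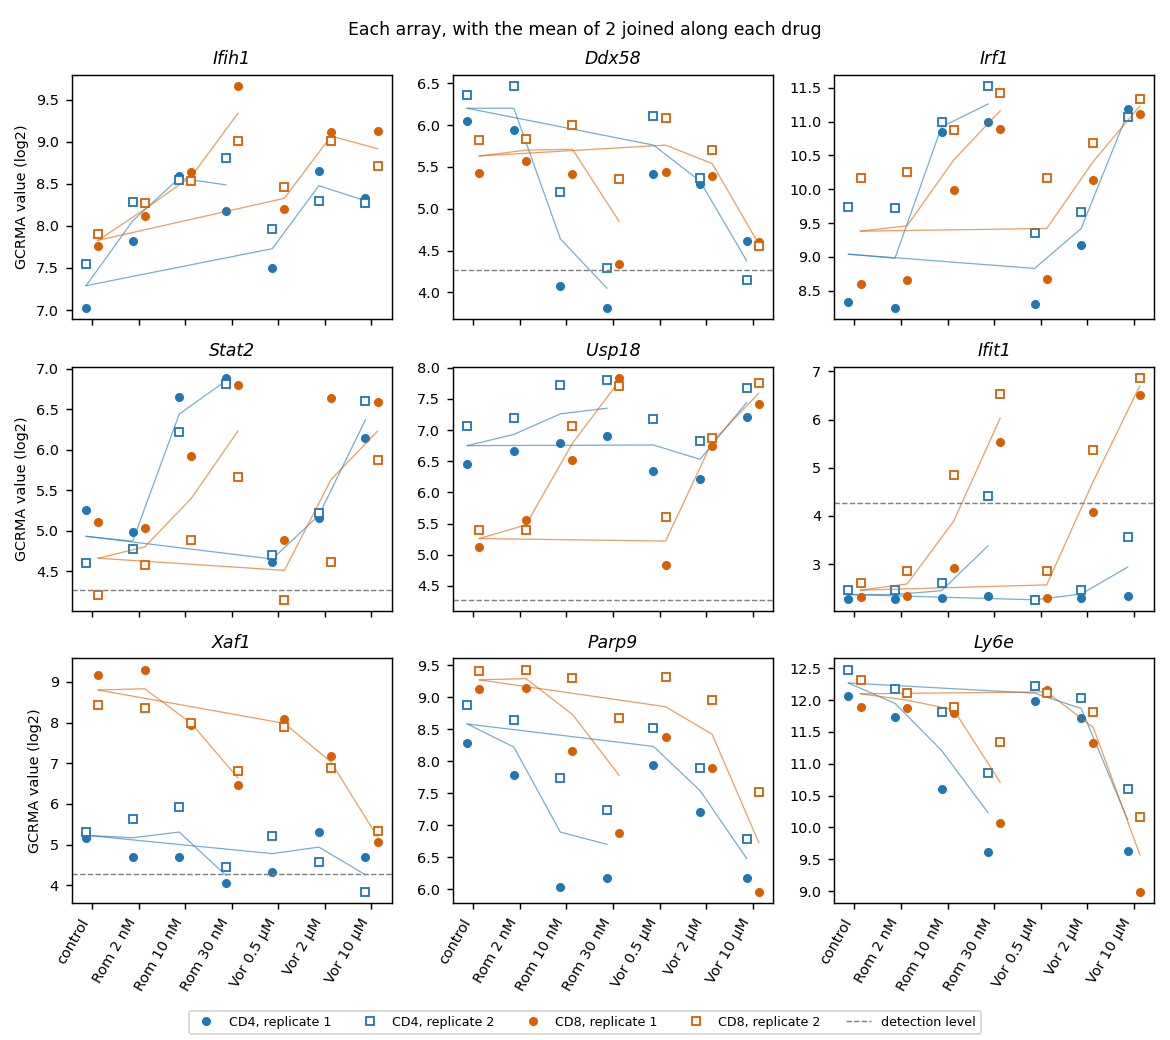
GCRMA log2 values of 9 of the 11 genes called in a drug comparison without the block, for every array by group (horizontal axis; Rom is romidepsin and Vor vorinostat); blue marks CD4 and orange CD8, filled circles replicate 1 and open squares replicate 2, lines join the means of 2 arrays from the control along each drug, a dashed line marks the detection level of 4.27 where it is in range, and each panel has its own vertical scale. Ifih1, Irf1 and Stat2 climb and Parp9 and Ly6e drop in both cell types, Usp18, Ifit1 and Xaf1 move mainly in CD8 arrays, and Ddx58 drops further in CD4 arrays.

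The genes of the PARP9 and DTX3L complex, an ADP-ribosyltransferase and its ubiquitin ligase partner that amplify interferon signalling, and of their relative Parp14, were called only downwards in the drug comparisons. Parp9 lay at 9.12 and 9.41 in the CD8 control arrays, 9.15 and 9.43, 8.16 and 9.30, and 6.88 and 8.68 with romidepsin, and 8.38 and 9.31, 7.89 and 8.96, and 5.95 and 7.51 with vorinostat. In CD4 cells it lay at 8.28 and 8.87 in the control, 7.78 and 8.65, 6.04 and 7.74, and 6.17 and 7.23 with romidepsin, and 7.94 and 8.51, 7.20 and 7.89, and 6.18 and 6.79 with vorinostat. Replicate 1 lay below replicate 2 in every group, and at the highest doses both arrays lay below both controls. The fall with vorinostat at 10 µM in CD8 cells, -2.54 ± 0.71 (5.81-fold lower), was called in both fits (adjusted p = 0.0173). It was lost without either control (-2.68 and -2.39, adjusted p = 0.0673 and 0.0903) or drug replicate 1 (-1.76, adjusted p = 0.208). With the block Parp9 fell also in CD4 cells at 10 nM (-1.69), 30 nM (-1.88), 2 µM (-1.03) and 10 µM (-2.09) and in CD8 cells at 30 nM (-1.49). Dtx3l fell with the block at 10 nM (-1.21), 30 nM (-2.05) and 10 µM (-1.73) in CD4 cells and at 30 nM (-1.47) and 10 µM (-2.26, adjusted p = 1.72e-05) in CD8 cells. Parp14 fell with the block at 30 nM in both cell types (-1.29 in CD4, -1.31 in CD8) and at 10 µM in CD8 cells (-1.74).

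The nuclear body genes changed less. Sp100, a core protein of PML bodies, lay at 8.30 and 8.55 in the CD8 control arrays, 8.38 and 8.40, 8.62 and 8.36, and 7.91 and 8.34 with romidepsin, and 8.33 and 8.34, 8.94 and 8.68, and 6.80 and 7.80 with vorinostat. Its CD4 arrays lay at 7.69 and 8.32 in the control, 7.92 and 8.40, 7.55 and 8.19, and 6.97 and 7.66 with romidepsin, and 7.92 and 8.34, 8.10 and 8.57, and 7.02 and 7.96 with vorinostat. Sp100 fell with vorinostat at 10 µM in CD8 cells (-1.13 ± 0.38, 2.19-fold lower, adjusted p = 0.0469), a call that was lost without either control (-1.26 and -1.0) or drug replicate 1 (-0.63, adjusted p = 0.44). With the block it fell also at 30 nM in CD4 cells (-0.69). Daxx, a histone chaperone of these bodies, fell with the block in CD4 cells at 10 and 30 nM romidepsin (-0.35 and -0.42).

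At vorinostat 10 µM in CD8 cells the change of Parp9 was -3.17 in replicate 1 and -1.90 in replicate 2, and that of Usp18 2.29 and 2.37. Medians over the 29 genes were -0.25 and -0.31 in CD4 cells and -0.21 and -0.37 in CD8 cells, romidepsin before vorinostat, beside 0.07, 0.02, 0.02 and 0.00 over all 9871 genes. Markers of T cells and of B cells moved with the falling genes. The mean level of the 4 T-cell markers with a probe set went from 11.49 in the CD4 control to 9.28 at 30 nM and 9.6 at 10 µM in replicate 1, and from 11.87 to 10.51 and 10.32 in replicate 2. That of CD8 arrays went from 11.16 to 9.91 and 9.13 in replicate 1 and from 11.96 to 11.31 and 10.44 in replicate 2. Of the 7 B-cell markers listed, 6 had a probe set and Pax5 was under the detection level throughout. Cd79a and Blk were over it in 1 CD4 array each, Cd22 in 4 CD4 arrays and 1 CD8 array, and Ms4a1 in 7 CD4 and 5 CD8 arrays. The mean level of the 6 went from 5.97 in the CD4 control to 3.45 at 30 nM and 3.66 at 10 µM in replicate 2, and from 3.03 to 2.47 and 2.41 in replicate 1. In CD8 cells it went from 4.58 to 3.23 and 3.43 in replicate 2 and from 3.04 to 2.50 and 2.43 in replicate 1. The replicate 1 means were under the detection level in the controls already, so a fall there is hardly measured. Cd79b was over the detection level in 10 of 14 CD4 arrays (2.27 to 9.86) and 12 of 14 CD8 arrays (3.15 to 8.81). Of the 5 plasmacytoid dendritic cell markers, Siglech and Cox6a2 were under the detection level throughout, while Tcf4 was over it in all arrays (5.6 to 7.29), Klk1 in 13 of 14 arrays of either cell type (up to 6.17) and Ccr9 in 5 CD8 arrays (up to 5.94). Of the 5 conventional dendritic cell markers with a probe set only Zbtb46 passed it, in 1 CD4 and 2 CD8 arrays (up to 4.54). Markers of natural killer cells, granulocytes and erythroid cells, and the macrophage markers other than Cd68, were under it in all arrays. Cd68 ran from 5.03 to 7.44 in CD8 and from 5.86 to 6.82 in CD4 arrays. The difference between the 3' and 5' probe sets of beta-actin was larger at the highest doses too, going from 0.94 and 0.78 in the CD4 control to 1.55 and 0.97 at 30 nM and 1.62 and 1.09 at 10 µM, and from 0.86 and 0.79 in the CD8 control to 1.23 and 0.90, and 1.43 and 1.16. For Gapdh, the 3' minus 5' values moved both ways. Its CD4 values went from 0.2 and 0.16 in controls to 0.24 and 0.09 at 30 nM and 0.34 and 0.08 at 10 µM. Its CD8 values went from 0.2 and 0.08 in controls to 0.18 and 0.07 at 30 nM and 0.26 and 0.13 at 10 µM. The part of these markers and of the beta-actin and Gapdh differences in the results was not tested. In arrays of whole cell populations, fewer cells of a kind and less RNA per cell cannot be told apart.

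**Figure D4:**
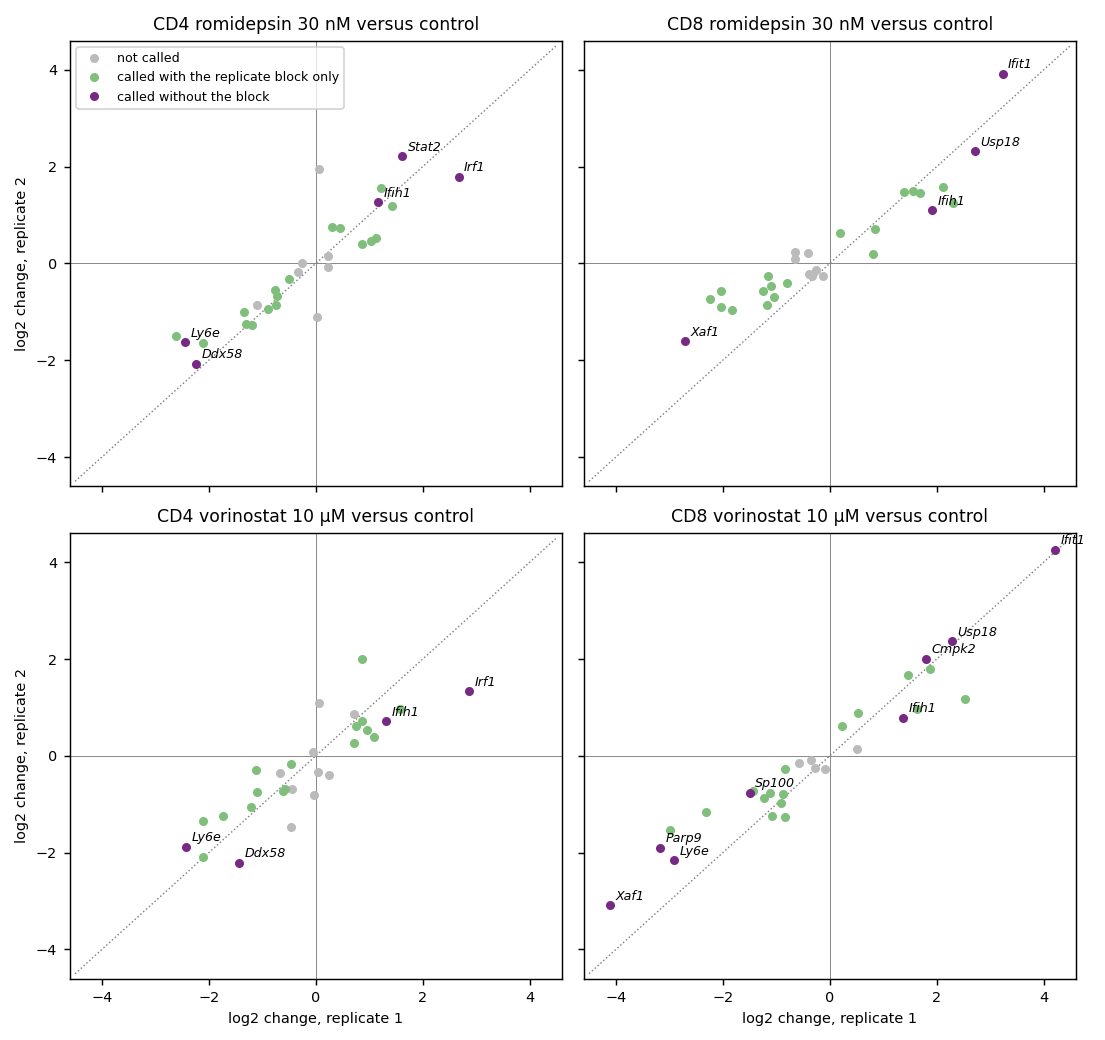
Change of each of the 29 tested genes against control in replicate 1 (horizontal, log2 units) and replicate 2 (vertical, log2 units) at the highest dose of each drug in each cell type; grey points were not called, green points were called with the block only and purple, named points were called without it, and the dotted line marks equal change. Called genes lie in the lower left and upper right corners, where a fit over both replicates finds its calls, and many of the green points lie farther from 0 along replicate 1.

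The steps from the middle to the highest dose were compared directly. Going from 2 to 10 µM, CD8 cells showed falls of Ly6e (-2.0 ± 0.52, adjusted p = 0.0342), Xaf1 (-1.84, adjusted p = 0.0311) and Sp100 (-1.51, adjusted p = 0.0311), 0 up and 3 down without the block (4.88% of all genes), and 3 up and 12 down with it (41.4%). In CD4 cells this step called 0 genes (5.42%; unadjusted p under 0.05 for 2 up and 3 down), and 3 up and 10 down with the block (43.7%). From 10 to 30 nM romidepsin limma called 0 genes in CD4 cells in either fit (0.122%, and 10.7% with the block; unadjusted p under 0.05 for 0 up and 1 down). In CD8 cells the step called 0 without the block (0.466%; unadjusted 4 up and 3 down) and 5 up and 9 down with it (20.8%). With equal array medians the step from 2 to 10 µM called 1 up and 6 down in CD8 cells (all calls 62.9% to 28.4% up) and 1 up and 1 down in CD4 cells (67.5% to 44.4% up), and with quantile normalization 1 up and 3 down in CD4 cells (57.3% up). The call of Xaf1 from 2 to 10 µM was lost without any of its 4 arrays (-1.99 to -1.70). That of Ly6e was lost without 10 µM replicate 1 (-1.41) or either 2 µM array (-2.25 and -1.75), and that of Sp100 without the same arrays (-1.01, -1.38 and -1.64).

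Whether the cell types responded differently was tested as CD8 change minus CD4 change. Without the block limma called 0 of the 29 genes at any of the 4 middle and highest doses, where 0.0709%, 1.00%, 0.0101% and 0.577% of all genes were called at 10 nM, 30 nM, 2 µM and 10 µM, and unadjusted p was under 0.05 for 1, 3, 2 and 2 genes upwards and 0, 0, 1 and 1 downwards. With the block 5 genes were called at 10 nM (8.40% of all), 6 at 30 nM (17.6%), 1 at 2 µM (1.45%) and 6 at 10 µM (10.7%). Usp18 was called at all 4, with a CD8 response larger by 1.03, 1.92, 1.78 and 1.64. Ifit1 was called at 30 nM and 10 µM, with the larger response in CD8 cells, but its controls and its CD4 drug means were under the detection level, so the size of the difference is not known. At 10 µM the response of Xaf1 differed by -2.63, from a control mean of 8.80 in CD8 and 5.23 in CD4 cells. Genes called with the block in both cell types had the same sign in both, as had 95.8% to 98.6% of all genes so called. At 30 nM these were 19 genes, 86.4% of the 22 called in CD4 and 86.4% of the 22 called in CD8 cells (63.8% and 77.5% over all genes), and at 10 µM 16 genes, 80% of 20 and 66.7% of 24 (78% and 74.6%). At 2 µM they were 4 genes, 44.4% of 9 and 33.3% of 12 (66.9% and 51.4%), and at 10 nM 3 genes, 15.8% of 19 and 60% of 5 (26.5% and 74.4%).

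A further 66 genes of the pathway were listed by function, of which 46 were tested. Genes of these lists were called in both directions. In CD4 cells 4 rose and 10 fell with romidepsin at 30 nM and 5 rose and 7 fell with vorinostat at 10 µM (12 and 20, and 12 and 22, with the block). In CD8 cells 3 rose and 2 fell, and 4 rose and 6 fell (13 and 9, and 12 and 20, with the block). In this order 30.4%, 26.1%, 10.9% and 21.7% of the 46 were called, beside 21.2%, 18%, 10.8% and 20.5% of all genes, and with the block 69.6%, 73.9%, 47.8% and 69.6%, beside 63.7%, 61.2%, 52.4% and 64.0%. The chemokine gene Cxcl10, which draws T cells to inflamed tissue, had the largest fitted change. Its CD8 arrays went from 4.83 and 4.84 in the control to 10.97 and 7.94 at 30 nM (4.62 ± 0.68, adjusted p = 0.000334) and 12.51 and 11.07 at 10 µM (6.95, 124-fold), and its CD4 arrays from 4.09 and 4.61 to 6.24 and 6.77 at 30 nM (2.15, adjusted p = 0.032). Irf8, a factor of the IRF family, rose in CD4 cells from 10.74 and 10.81 to 14.26 and 13.86 at 30 nM (3.28) and to 14.16 and 13.49 at 10 µM (3.05), and in CD8 cells from 12 and 12.25 to 14.31 and 13.90 (1.98) and 14.17 and 13.88 (1.91). Tdrd7 rose in CD4 cells at 30 nM, at least 2.99-fold.

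Those that fell include the DNA-sensing adaptor gene Sting1, from 8.89 and 9.93 in the CD4 control to 4.88 and 7.01 at 30 nM (-3.46 ± 0.98, adjusted p = 0.0188) and 5.30 and 7.08 at 10 µM (-3.22), and from 8.44 and 9.17 in the CD8 control to 3.61 and 6.17 at 10 µM (-3.91, adjusted p = 0.0096). Nmi, a binding partner of IFI35, fell at 30 nM in CD4 cells (-2.57, adjusted p = 0.0377) and at 10 µM in CD4 (-3.15, adjusted p = 0.0145) and CD8 cells (-3.69, adjusted p = 0.00489). With the block Ifi35 itself rose in both of these CD4 comparisons but was not called at 10 µM in CD8 cells. Slfn1 fell at 10 µM in CD8 cells, at least 4.01-fold lower, and at 30 nM in CD4 cells, at least 2.34-fold lower. Ifitm2, whose product blocks virus entry, fell in CD4 cells at 30 nM (-2.43) and 10 µM (-2.39), and Herc6, the mouse ISG15 ligase, fell in CD8 cells at 10 µM, at least 2.56-fold lower. The type I interferon genes with a probe set, Ifnb1 and Ifna4, reached 2.75 and 2.27 and were detected in no array. Ifng ran from 8.25 to 12.52 in CD4 and from 12.33 to 15.2 in CD8 arrays, and with the block it fell with vorinostat at 10 µM in both cell types (-1.18 in CD4 and -1.29 in CD8).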

How the data were processed

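The submitters' deposited table holds 45101 probe sets on 28 arrays, which the authors made with GCRMA per the submitters' processing notes, without version or settings. These deposited values were read as log2 expression, since array medians of 2.31 to 2.40 and highest values of 16.2 to 16.7 fit that scale, though the labels do not state the base. Probe sets were named from the platform's annotation: 34958 name 1 gene, 932 several and 9211 none. For each gene the brightest was kept, and the 9871 genes over 4.27 (2 log2 units above 2.27, the commonest value) in at least 2 arrays were tested. Per array 8446 to 9321 genes lay over that level, and the 2 arrays a group limit the precision.

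R 4.3.3 and limma 3.58.1 (lmFit, eBayes) fitted 14 group means (14 residual degrees of freedom), checked on simulated data, with Benjamini-Hochberg adjustment over all tested genes in each comparison. The fit with the replicate number in each cell type as a block had 12. The numbers pair the arrays: the deviations of arrays with the same number from their group means correlated in every pair (CD4 with CD4 0.762 to 0.94, CD8 with CD8 0.768 to 0.958, CD4 with CD8 0.722 to 0.859), although the labels do not say what a number stands for. By Xist and Eif2s3y, sex goes with the number. The other alternatives were quantile normalization, equal array medians, no filter, the mean of all probe sets, 1 cell type alone and leaving out each array.

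The members, the lists and the rules were chosen with earlier results of these data known. Every member is named. The 11 called in a drug comparison without the block are given with all arrays, and up to 8 called genes of the pathway lists, written from general knowledge, with their values. Markers of 10 cell types were checked. Raw image files were not used here.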

Additional observations from a re-analysis of the deposited data

Results flagged for a closer look

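For the genes listed here the drug response in CD8 cells and that in CD4 cells parted (CD8 change minus CD4 change, log2 units), with an adjusted p under 0.05 in the limma fit with the replicate block. None of these gaps was called in the fit without the block. At romidepsin 10 nM they were Ddx58 (1.65), Ifngr2 (1.5), Usp18 (1.03), Ifnar1 (-0.92) and Trim30a (-0.92). At 30 nM they were Ifit1 (2.56), Ifngr2 (1.96), Usp18 (1.92), Ddx58 (1.38), Samhd1 (0.98) and Ifnar1 (-0.92). At vorinostat 2 µM Usp18 alone was called (1.78). At 10 µM they were Ifit1 (3.66), Ifngr2 (1.71), Usp18 (1.64), Samhd1 (1.04), Ifnar1 (-1.12) and Xaf1 (-2.63).

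Ddx58 fell in CD4 cells at 10 nM (-1.57) and stayed near its control in CD8 cells (5.42 and 6.0, against 5.43 and 5.82). The values of Ifit1 are fitted differences and no measured sizes, since its controls and its CD4 drug means were under the detection level and it passed the filter through drug groups alone. For Xaf1 the CD4 arrays at 10 µM (4.69 and 3.83) lay around that level, so a fall as large as in CD8 cells could not be seen.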

How the results depend on the processing

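Counts of the members called, 29 tested unless given otherwise, depended most on the replicate block. In the order romidepsin 10 and 30 nM, vorinostat 2 and 10 µM, the block gave 19, 22, 9 and 20 in CD4 cells (2, 5, 1 and 4 without it) and 5, 22, 12 and 24 in CD8 cells (0, 4, 3 and 8). It gave 17 for CD8 against CD4 controls (3), 13 for the vorinostat step in CD4 cells (0), 14 for the romidepsin step (0) and 15 for the vorinostat step (3) in CD8 cells, and 5, 6, 1 and 6 for the response differences (0). Quantile normalization gave 5, 10, 0 and 7 in CD4 cells, 1, 11 and 15 in CD8 cells at 10 nM, 30 nM and 10 µM, 6 for the controls, 4 for the CD4 vorinostat step, 1 and 5 for the CD8 steps, and 2 and 1 for the response differences at 30 nM and 10 µM. Equal array medians gave 8, 12, 0 and 9 in CD4 cells, 15 and 18 in CD8 cells at the highest doses, 8 for the controls, 2 and 7 for the vorinostat steps in CD4 and CD8 cells, and 1 for the response difference at 10 µM. At the highest doses, in the order of CD4 romidepsin and vorinostat and CD8 romidepsin and vorinostat, 30.9%, 28.1%, 18.5% and 30.7% of all genes were called after quantile normalization and 22.9%, 20.3%, 17.9% and 24.6% with equal medians. For the other counts quantile normalization called 15.2% (10 nM) and 2.93% (2 µM) in CD4 cells, 1.35% (10 nM) in CD8 cells and 10.4% for the controls. Its steps had 11.5% (CD4 vorinostat), 0.833% and 10.3% (CD8), and its response differences 1.79% and 0.65%. Equal medians called 11.3% and 1.17% in CD4 cells, 7.18% for the controls, 5.81% and 5.72% for the vorinostat steps and 0.163% for the response difference. No filter (36 members tested) left 1 call at 2 µM in CD8 cells. The mean of all probe sets (27 members tested) gave 5 for the controls and 1 for either vorinostat step. With 1 cell type alone there were 0 calls at 2 µM in CD4 cells, 1 at 2 µM in CD8 cells and 1 for the CD8 vorinostat step.

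Leaving out 1 array at a time gave 0 to 2, 2 to 3, 0 to 1 and 1 to 3 calls in CD4 cells and 2 to 5 (30 nM), 0 to 0 (2 µM) and 4 to 9 (10 µM) in CD8 cells, 1 to 2 for the controls and 0 to 2 for the CD8 vorinostat step, with 0 to 0 in all other comparisons. The lone array left in a group is then assumed to vary like the other groups. It is also set against a group that holds both replicate numbers, so their offset enters the change. Leaving out arrays was not run with the block. No called change turned its sign under any of these alternatives. Of 33 changes called without the block, all 33 were called with it, 29 after quantile normalization and 23 with equal medians. The cause of these movements was not tested. With 2 arrays a group, and values near the floor for Ifit1 and Cmpk2, small changes could not be detected.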
